A study of Drosophila melanogaster with 4 samples.

Results

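Regions enriched for dimethylated lysine 79 of histone H3 (H3K79me2) were called in fly head chromatin. On the autosomal arms 2L, 3L and 3R, 1413 of them were compact and marked in both ChIP replicates. The autosomal arm 2R was not part of the set. The 1413 were taken from the authors' combined list of enriched clusters, which held 9950 in all and 6163 on 2L, 3L and 3R. A cluster was called compact when it was at least 2000 bp and under 10000 bp wide, which 3594 clusters of these arms were. It was called marked in both replicates when enriched regions of each replicate's own list covered at least 80% of its bases. The clusters were thus chosen by measured widths and coverage, and both are given below as description, with no test.

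H3K79me2 is placed by the methyltransferase Dot1, named grappa in Drosophila, which acts on nucleosomes without the SET domain of most other histone lysine methyltransferases. The mark lies in the body of transcribed genes, most densely in the part that follows the start site, and is associated with active transcription. Many fly genes are short and closely spaced, so marked genes can lie next to each other.

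Head nuclei came from Oregon-R flies, a wild-type strain, at a mixed adult stage and kept in population cages on a 22-day cycle. There were 2 ChIP libraries made with 1 antibody lot and 2 input libraries, and each ChIP library had a list of called regions. No treatment or second genotype was compared, and sex was not given, so the comparison that the design allows is that between the replicates. Heads hold neurons, glia, photoreceptors, muscle and fat, so a mark present in fewer cells and a lower level of the mark per cell cannot be told apart. Positions are given on FlyBase release 5. Genes and DNA sequence at these positions were not analysed here, and the tissue label was therefore not checked against genes of those cell types.

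Of the compact clusters on 2L, 3L and 3R, 39.3% passed the coverage limit in both replicates, against 28% of the combined clusters of any width and chromosome. More of the compact clusters reached the limit in replicate 2 (75.9%) than in replicate 1 (57.9%). Among the 2181 compact clusters that failed, 1314 reached 80% only in replicate 2, 668 only in replicate 1, and 199 did so in no library. Of those that failed, 634 had no base in the list of replicate 1, and 153 had none in that of replicate 2. Loss of a cluster thus came more often from replicate 1. The shares behind these counts follow from the rule and support nothing further.

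**Figure D1:**
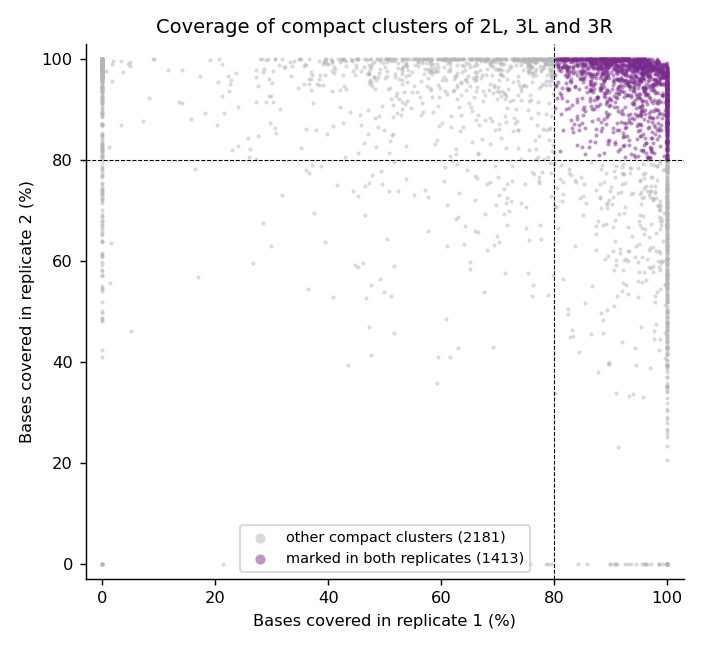
Share of the bases of each compact cluster of 2L, 3L and 3R that is covered by enriched regions of replicate 1 (x axis, percent) and of replicate 2 (y axis, percent), 1 point per cluster. The dashed lines mark 80%, and the 1413 clusters in the upper right corner are those described here. Of the other 2181, 1314 reach 80% in replicate 2 alone (upper left) and 668 in replicate 1 alone (lower right).

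The coverage of the 1413 clusters was well above the limit in both libraries. The median covered share was 94.3% in replicate 1 and 96.7% in replicate 2 (95.5% ± 1.72, SD, n = 2). Replicate 1 covered 268 of them to 100% and replicate 2 covered 165, or 18.97% and 11.7%, against 19% and 18.6% of all compact clusters of these arms. No cluster was covered to 100% in both. The smaller of the replicates' shares was at least 90% in 759 clusters and reached 99.2% at most. Replicate 1 was the library with the lower coverage in 836 clusters and replicate 2 in 577.

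The clusters next to the limits differed little from each other. Just inside the coverage limit lay 3511765 to 3517445 on 2L, with 80.04% of its bases called by replicate 1 and 90.4% by replicate 2. It was followed by a cluster on 3R from 4777129 to 4780299 (80.1% and 96.8%) and one on 3R from 13791115 to 13797459 (100% and 80.1%). Just outside it, 3L from 19085070 to 19091050 was 79.99% and 100% covered, 3R from 16946161 to 16953233 was 100% and 79.98% covered, and 2L from 20650110 to 20658863 was 79.95% and 81.7% covered. At the lower width limit, the narrowest cluster inside was 2002 bp, on 2L from 3790008 to 3792009, and the widest one outside was 1999 bp, on 3L from 5155641 to 5157639. At the upper limit the clusters were 9968 bp, on 3R from 5400690 to 5410657, and 10059 bp, on 3R from 13994529 to 14004587.

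The 3 arms carried these clusters at similar density. There were 415 on 2L, 480 on 3L and 518 on 3R, which is 18.0, 19.6 and 18.6 per Mb. They made up 39.4% of the compact clusters on 2L (95% Wilson interval 36.5 to 42.4), 41.6% on 3L (38.8 to 44.5) and 37.4% on 3R (34.9 to 39.95). A difference between the arms was not tested. Together they spanned 6.55 Mb, or 8.68% of the 3 arms. They were 22.9% of all combined clusters on these arms and held 25.6% of the length of those clusters. On X, which was not part of the set, 359 of 1120 compact clusters (32.1%) met the same limits.

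Most of the clusters were in the lower part of the width range. The median width was 4040 bp, with a median of 3842 bp on 2L, 4075 bp on 3L and 4267 bp on 3R, against 3371 bp for the compact clusters that failed the coverage limit. Clusters from 2 to 3 kb numbered 418, and those from 9 to 10 kb numbered 65. Wider clusters passed the coverage limit more often, with a share that rose in each step of 1 kb from 33.3% at 2 to 3 kb to 63.1% at 9 to 10 kb. On the same arms 61.8% of the 458 clusters of 10 kb or wider met the limit, and 2.79% of the 2111 clusters under 2000 bp.

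The bases that a replicate did not cover lay mostly at the edges. Of all bases in the 1413 clusters, 88.8% were called by both libraries, 4.34% only by replicate 1, 6.33% only by replicate 2 and 0.52% by no library. In the first twentieth of a cluster's width, the mean covered share was 60.1% in replicate 1 and 65.3% in replicate 2, and in the last twentieth it was 58.3% and 67.5%. The centre of the clusters, by contrast, was covered nearly without breaks. From 15% to 80% of the way along, every bin was covered to at least 98.8% in replicate 1, and every bin to at least 98.1% in replicate 2. The coverage limit leaves little of a cluster uncovered, and no profile of the other compact clusters is given. Nothing is therefore read from the full centre. The profile was alike at the start and the end, and the direction of transcription was not known.

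**Figure D2:**
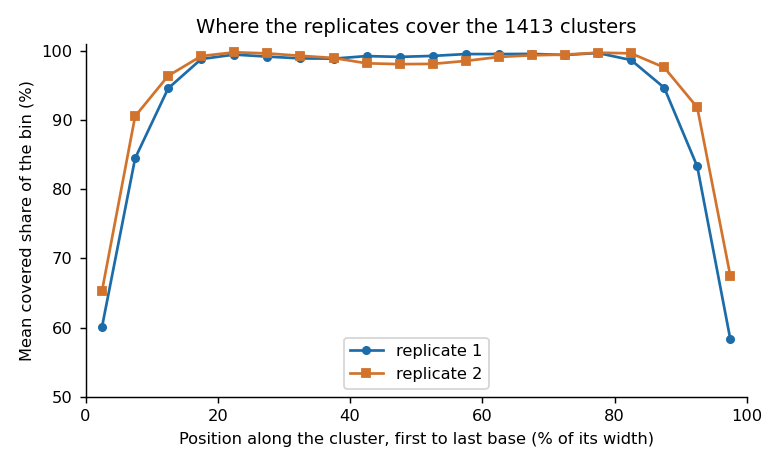
Mean share of bases covered (y axis, percent) in 20 equal bins from the first to the last base of the 1413 clusters (x axis, percent of the width), for replicate 1 (circles) and replicate 2 (squares). Both lines fall in the outer bins, to 60.1% and 58.3% in replicate 1 and to 65.3% and 67.5% in replicate 2. Replicate 2 has a shallow dip to 98.1% near the centre.

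Breaks inside a cluster were short and seldom shared. The coverage limit itself bounds the length of such gaps. No values for other compact clusters are given, so this is no finding about the set. Replicate 1 left 149 inner gaps in 146 clusters (10.3%), with a median length of 265 bp. In replicate 2 there were 169 gaps in 156 clusters (11.0%), with a median of 238 bp. The other replicate filled 136 of the 149 gaps of replicate 1 and 156 of the 169 gaps of replicate 2 completely. Only 29 clusters had an inner gap in both libraries, and in 7 of them the gaps shared a base. Gaps of replicate 2 lay between 25% and 75% of the way along the cluster in 88.2% of cases (95% Wilson interval 82.4 to 92.2), and gaps of replicate 1 in 64.4% (56.5 to 71.7).

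Most of the clusters were met by a single call in each library, though such a call could also meet other combined clusters. Of the 1466 calls of replicate 1 that met the set, 350 (23.9%) met at least 2 combined clusters. In replicate 2 it was 57 of 1578 (3.61%). Of the 1413 clusters, 1264 were met by exactly 1 cluster of replicate 1 and 1256 by exactly 1 of replicate 2, which is 89.5% and 88.9% (89.2% ± 0.40, SD, n = 2). Among all compact clusters of these arms the shares were 73.3% and 84.9%, clusters with no match included. In 1137 cases (80.5%, 95% Wilson interval 78.3 to 82.5) there was exactly 1 in both, against 61.4% of all compact clusters and 76.4% of the 1401 that failed the limit but were met in both replicates. A single call in both was rarer in wide clusters, with 95.7% at 2 to 3 kb and 41.5% at 9 to 10 kb. The most divided cluster in replicate 2 lay on 3L from 10673281 to 10682590. It was met by 4 clusters of replicate 2, which together covered 92.2% of it, and by 1 cluster of replicate 1, which covered 89.9%. In replicate 1 the highest number was 3. It was reached on 2L from 13433331 to 13439903, which 2 clusters of replicate 2 met. It was also reached at 2 others of the set, each met by 1 cluster of replicate 2.

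Most borders of these clusters lay close together in the replicates, while some lay far apart. The median distance between the outer edges of replicate 1 and of replicate 2 was 315 bp over 2826 edges, with 313 bp at the start and 315 bp at the end. It was 314.5 bp on 2L, 316.5 bp on 3L and 311 bp on 3R. For the compact clusters that failed the limit but were met in both replicates it was 1194.5 bp. The coverage limit itself bounds how far an edge can lie inside a cluster, so this difference is no finding. Within 100 bp of each other lay 19.04% of the edges, and 63.3% lay within 500 bp. The 75th percentile of the distance was 990.5 bp, the 90th was 5236 bp and the largest distance was 68124 bp. Both edges were within 500 bp in 615 clusters, or 43.5%, against 25.1% of all compact clusters met in both replicates. Both were within 200 bp in 189, or 13.4%, against 7.11%. These 189 had a median width of 3396 bp and a median score at percentile 83.0 of the combined list.

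Some clusters were called almost base for base alike. On 3R from 1304056 to 1310397, replicate 1 ran from 1304162 to 1310375 and replicate 2 from 1304123 to 1310369, so the starts lay 39 bp apart and the ends 6 bp. On 3L from 6479601 to 6483692, both edges differed by 17 bp. For 2L from 10407845 to 10413880 the starts differed by 84 bp and the ends by 9 bp. These are the clusters with the smallest summed edge distance of each arm.

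The edges of the combined list followed replicate 2 more closely than replicate 1. Of the 2826 edges, 66.9% had an edge of replicate 2 within 100 bp and 24.4% an edge of replicate 1. For the compact clusters that failed the limit but were met in both replicates, the shares were 47.4% and 10.1%. The order was thus not particular to the set. The coverage limit bounds how far an edge can lie inside a cluster, so the higher shares of the set are no finding. Counted outwards from the combined edge, replicate 1 had a median edge position of -47 bp and replicate 2 one of -39 bp, slightly inside the cluster.

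Beyond the edges the libraries differed more. A cluster of replicate 1 ran past the edge by over 1000 bp at 471 of the 1413 clusters (33.3%, 95% Wilson interval 30.9 to 35.8), and a cluster of replicate 2 at 59 (4.18%, 3.25 to 5.35). The mean over the replicates, 18.8% ± 20.6 (SD, n = 2), therefore describes neither. Among all compact clusters met in both replicates the shares were 36.6% and 4.19%, so the 1413 stood near that background. The overhang was found in replicate 1 but not in replicate 2 at 462 clusters, in replicate 2 but not in replicate 1 at 50, and in both at 9. The median overhang was 5005 bp at the 471 and 2917 bp at the 59. In 397 of the 471 cases the cluster that ran past was the only one of replicate 1 to meet the region, and in 45 of the 59 the only one of replicate 2.

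**Figure D3:**
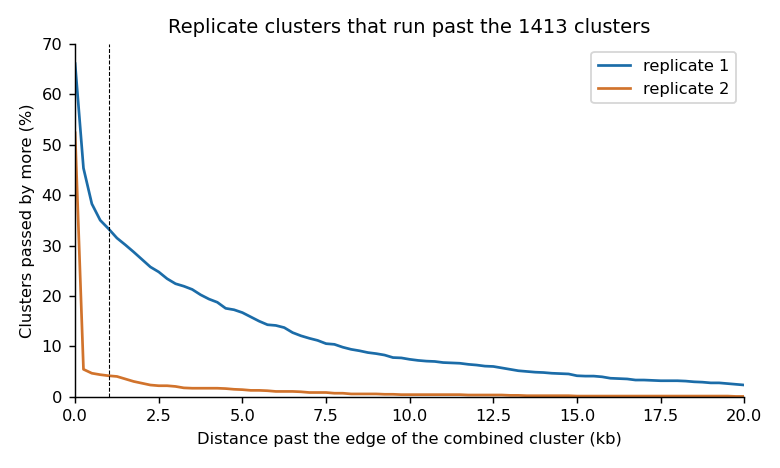
Share of the 1413 clusters (y axis, percent) at which a cluster of replicate 1 or of replicate 2 runs past either edge by more than the distance on the x axis (kb). The dashed line marks 1 kb, which 33.3% exceed in replicate 1 and 4.18% in replicate 2. The line of replicate 1 declines slowly over the whole range, while that of replicate 2 drops at once.

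A compact cluster could thus lie inside a broad domain of replicate 1. In replicate 1, 208 of the 1413 (14.7%) were met by a cluster of 10 kb or wider, against 15.3% of all compact clusters of these arms. In replicate 2 there were 19 (1.34%, against 0.946%). The widest such domain was 74105 bp in replicate 1, on 2L from 7893416 to 7967520. It covered 100% of a cluster of 3046 bp from 7955705 to 7958750, for which replicate 2 had a separate call of 2793 bp from 7955798 to 7958590. In replicate 2 the widest was 24156 bp, and it only reached the first bases of the cluster on 3R from 25841452 to 25850465, where it began 24152 bp before the start. Replicate 1 joined several of the 1413 in 94 of its clusters, which met 193 of them, and replicate 2 in 5, which met 10. The largest number in 1 call of replicate 1 was 4, on 3L from 17923719 to 17955109, where 6 combined clusters were met in all.

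The scores of the 1413 clusters ranked high in each list, though not at the top. The score has no stated scale and comes from the libraries that the rule used, so ranks are given as percentiles within a list and are not tested. In the combined list the median was at percentile 79.7, with a range of 10.8 to 99.95. The best overlapping cluster of each replicate had a median at percentile 65.7 in replicate 1 and 77.1 in replicate 2 (71.4 ± 8.08, SD, n = 2). For the compact clusters below the coverage limit these medians were 51.2 in the combined list, 47.4 in replicate 1 and 52.1 in replicate 2. The replicate medians of this class cover only the 1547 and 2028 clusters that a call of that replicate met. For clusters of 10 kb or wider on the same arms they were 84.0, 86.7 and 86.1, with 455 of the 458 met in replicate 1. The 359 compact clusters of X at the same coverage limit had medians of 84.0, 69.8 and 82.8, above those of the 1413 in all 3 lists. The 1413 therefore lay between the other compact and the wide clusters of their arms, and a high rank was not limited to them.

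**Figure D4:**
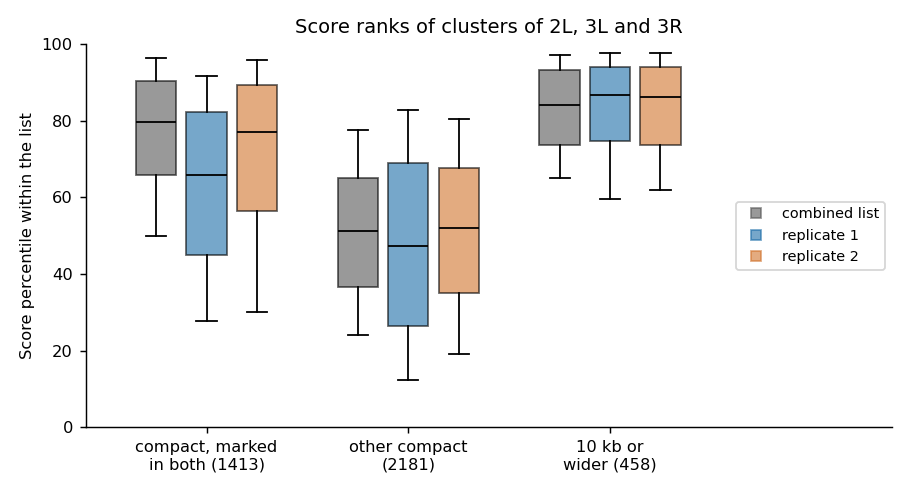
Percentile of the authors' score within its own list (y axis) for the 1413 clusters, the other compact clusters and the clusters of 10 kb or wider of 2L, 3L and 3R. Grey boxes show the combined list, blue boxes the best overlapping cluster of replicate 1 and orange boxes that of replicate 2. Boxes span the 25th to the 75th percentile of clusters with the median as a line, whiskers run from the 10th to the 90th, and numbers in brackets give all clusters of a class. Clusters that no call of a replicate met are left out of its boxes, which leaves 1547 and 2028 of the other compact clusters and 455 of the widest class in replicate 1. The median of the 1413 is lower in replicate 1 (65.7) than in replicate 2 (77.1), each within its own list, so these medians are not on one scale.

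More of the set lay in the highest quartile of replicate 2 than in that of replicate 1, and this also held for all compact clusters. Each quartile is that of the replicate's own list. The lengths of the replicates' lists are not given here, so their shares are not on one scale. The highest quartile of the combined list held 836 of the 1413 (59.2%), against 31.1% of all compact clusters of these arms. Replicate 1 placed 509 (36.0%, against 21.8%) in its highest quartile and replicate 2 placed 754 (53.4%, against 30.2%). Both did so for 423, for which no share of all compact clusters is given, so nothing is read from that count. Above the median of both replicates lay 869 clusters (61.5%), and below the median of both 168 (11.9%), against 44.8% and 18.7% of the compact clusters met in both replicates. The lowest quartile of the combined list held 10, again with no share of all compact clusters to set beside it. The ranks in the replicates were related across the clusters (Spearman's rho = 0.62, Pearson's r = 0.53, n = 1413), and rho was 0.63 in the 1137 with a single call in each. This is a description across clusters that share libraries and chromosomes, and a rank in replicate 1 can belong to a call far wider than the cluster.

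Rank rose with width in the narrower classes. The median percentile in the combined list was 63.7 at 2 to 3 kb, 79.1 at 3 to 4 kb, 83.2 at 4 to 5 kb, 86.9 at 5 to 6 kb and 87.6 at 6 to 7 kb. Above 7 kb it no longer rose, with 89.1, 86.2 and 88.3 in the last 3 classes. Replicate 2 went from 55.0 at 2 to 3 kb to 87.6 at 7 to 8 kb, and then gave 85.4 and 87.0. In replicate 1 the median was 44.6 at 2 to 3 kb, 78.6 at 7 to 8 kb, 84.6 at 8 to 9 kb and 84.1 at 9 to 10 kb. Across clusters, width and the combined score had a Spearman's rho of 0.53 (Pearson's r = 0.45, n = 1413). The coverage limit in turn was passed by 10.3% of the compact clusters in the lowest score quartile among them, 21.3% in the second, 46.0% in the third and 79.6% in the highest.

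The highest combined score among the 1413 belonged to a cluster of 6927 bp on 3L from 6171875 to 6178801. It was 91.7% covered in replicate 1, where it ranked at percentile 99.5, and 100% covered in replicate 2, at percentile 99.9. The next clusters of that arm lay from 21509694 to 21514292 (97.2% and 99.0% covered) and from 20219017 to 20223645 (99.1% and 97.6% covered). Both ranked above percentile 99 in each replicate, and neither was passed by over 174 bp in either library. They were 4599 bp and 4629 bp wide, somewhat above the median of 4075 bp for the set on that arm.

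On 3R the first was a cluster of 7836 bp from 20756823 to 20764658, 91.7% covered in replicate 1 and 100% in replicate 2. Replicate 1 divided it into 2 calls, and replicate 2 held it as 1. The next lay from 11096779 to 11104468, 100% and 96.9% covered, and from 1304056 to 1310397, 98.0% and 98.5% covered. The last of these is also the cluster of the arm with the closest edges, described above.

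On 2L the first was a cluster of 6527 bp from 9238059 to 9244585, 96.8% and 98.1% covered. Replicate 2 called 6400 bp there, while the call of replicate 1 was 22175 bp wide and began 15860 bp before the start. Its percentile was 86.7 in replicate 1 and 99.7 in replicate 2. The next lay from 19166422 to 19172232, 100% and 91.2% covered, and from 6060046 to 6068207, 98.2% and 99.1% covered. All 9 of these clusters lay above percentile 99.5 of the combined list, and 8 of them above percentile 96 of replicate 1.

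**Figure D5:**
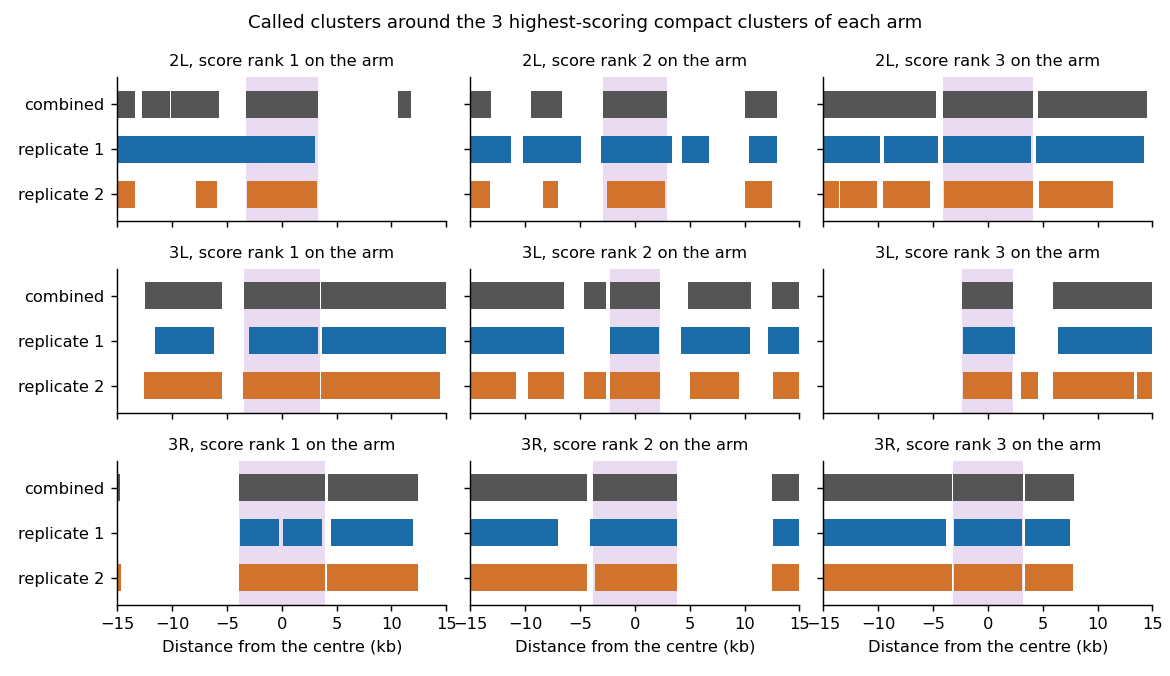
Called clusters in the combined list (grey), replicate 1 (blue) and replicate 2 (orange) within 15 kb of the centres of the 3 highest-scoring compact clusters of each arm, which are shaded. The x axis is the distance from the centre in kb, and each bar is 1 called cluster. In 8 of the 9 panels the calls of both replicates end within 467 bp of the shaded borders, and in the first panel of 2L the call of replicate 1 runs on for 15860 bp.

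The lowest combined scores were found at clusters narrower than the median of the set. On 2L the lowest was a cluster of 3043 bp from 20312429 to 20315471, at percentile 10.8 of the combined list, 48.7 of replicate 1 and 3.97 of replicate 2. On 3L it was 2009 bp from 22065800 to 22067808, at percentiles 21.4, 7.98 and 11.5. On 3R it was 3070 bp from 5680949 to 5684018, at percentiles 21.5, 12.6 and 17.0. These weak calls were nevertheless 82.6% to 91.9% covered in replicate 1 and 91.8% to 94.5% in replicate 2.

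The widest cluster of 2L ran from 16886591 to 16896521 (9931 bp), that of 3L from 17028030 to 17037988 (9959 bp) and that of 3R from 5400690 to 5410657 (9968 bp). Replicate 1 covered 82.7%, 94.1% and 86.3% of them, and replicate 2 covered 96.8%, 88.1% and 99.1%. The narrowest were 2002 bp on 2L, 2002 bp on 3L from 14825349 to 14827350 and 2004 bp on 3R from 13654589 to 13656592. In replicate 1 the latter pair lay in calls of 8581 bp and 7256 bp, which ran 6710 bp and 5139 bp past their ends, whereas replicate 2 had calls of 1788 bp and 1755 bp there.

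The spacing of the set varied widely. The median distance to the nearest other one of the 1413 was 5617 bp, with 6395 bp on 2L, 5312 bp on 3L and 5474 bp on 3R. Another lay within 1000 bp of 345 clusters (24.4%) and within 10 kb of 851 (60.2%, 95% Wilson interval 57.7 to 62.7). The share within 10 kb was 78.7% for the 2468 clusters at a coverage limit of 50% and 41.4% for the 759 at 90%. It thus moved with the size of the set. No such share is given for other compact clusters, so no clustering is read from it. With clusters under 1 kb apart joined before the rule was applied, the share within 10 kb was 34.3%. Counted to the next combined cluster of any kind, the gap was at most 1000 bp on 37.2% of the sides, against 36.9% for the other compact clusters. At the far end, 135 clusters had none within 50 kb. Between consecutive clusters the median gap was 20402 bp, and 193 of the 1410 gaps were over 100 kb.

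In the order of the combined list, 441 pairs of the 1413 followed each other with no other cluster between them. Such runs held 744 of the 1413 (52.7%). Of the runs, 210 held 2 clusters, 61 held 3 and 32 held at least 4. A share in runs was not computed for other clusters, so nothing is read from it. The next combined cluster on a side was another of the 1413 in 31.2% of cases, against 21.4% beside the other compact clusters, 25.3% beside all compact clusters and 22.9% of all combined clusters on these arms. Neighbours of 10 kb or wider were 9.45% of the sides, against 7.27% for the other compact clusters. The median gap to the next cluster was 1711 bp, against 1618 bp for the others.

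The smallest gaps between neighbours were a few base pairs. On 3R, the clusters from 16910242 to 16917413 and from 16917417 to 16923722 were 3 bp apart. On 3L, those from 13473248 to 13476608 and from 13476613 to 13484390 were 4 bp apart, and on 2L, those from 10366118 to 10373714 and from 10373744 to 10376489 were 29 bp apart. Of the 441 directly following pairs, 78 (17.7%, 95% Wilson interval 14.4 to 21.5) were bridged by 1 call of replicate 1, 5 (1.13%, 0.49 to 2.63) by 1 call of replicate 2 and none by both. Of the 187 pairs up to 1000 bp apart, 63 were bridged in replicate 1 and 5 in replicate 2. For the bridged pairs, the number of calls thus depended on the library.

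The longest run held 7 clusters, on 3L from 5625497 to 5680586. It spanned 55.1 kb, of which 59.4% was marked, and was met by 6 clusters of replicate 1 and 10 of replicate 2. Its clusters ranged in rank from percentile 36.9 to 99.1 of the combined list, so strong and weak calls stood side by side. The strongest, from 5635599 to 5642596, was at percentile 99.5 in replicate 1 and 98.0 in replicate 2. The weakest lay from 5651138 to 5654524, at percentiles 39.0 and 18.2.

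The first of the 2 longest runs on 2L, with 6 clusters, covered 49.5% of the 81.9 kb from 9887370 to 9969313. The longest run of 3R, with 5 clusters from 16910242 to 16945248, was nearly continuous, with 94.0% of 35.0 kb marked. Replicate 1 met it with 3 clusters, the widest of 13493 bp, and replicate 2 met it with 5. All 5 clusters were between percentile 80.5 and 95.8 of the combined list.

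Density along the arms was uneven. Over the 74 whole windows of 1 Mb on the 3 arms, the median was 18 clusters per window and the highest 44. That window was 3R from 20000001 to 21000000, where 55% of the 80 compact clusters belonged to the set and 20.8% of the sequence lay in them. On 3L the most, 36, lay from 17000001 to 18000000, and on 2L the most, 35, from 6000001 to 7000000. The fewest were 0 on 3L from 23000001 to 24000000, which held 1 compact cluster of any kind, 5 on 2L from 22000001 to 23000000, with 8 compact clusters, and 9 on 3R from 15000001 to 16000000, with 41. A second window of 3R also held 9. In that sparse window of 3R compact calls were thus present, while 22.0% of them passed the coverage limit, against 37.4% on the arm.

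The longest interval between neighbouring clusters of the set was 569.1 kb on 3L, between 18104542 and 18673597. It held 15 other combined clusters, 6 of them compact and 9 under 2000 bp, which covered 5.83% of it. On 2L, 539.1 kb between 17591589 and 18130694 held 35 others, of which 12 were compact, 22 were under 2000 bp and 1 was 10 kb or wider, and which covered 16.7%. On 3R, 411.4 kb between 2478677 and 2890034 held 1, which covered 1.41%. All of these intervals therefore held some called mark.

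Replicate 2 held 70 regions called depleted on the 3 arms, of which none touched one of the 1413 and 9 lay within 1000 bp of one. In comparison, 23 touched another compact cluster and 8 a cluster of 10 kb or wider. The coverage limit in replicate 2 leaves little room for a depleted call of that library in the set, so nothing is read from the absence of contact. The combined list held 5 on these arms, none of them within 1000 bp of the set, and replicate 1 held none.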

How the data were processed

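Bowtie 0.12.7 is the aligner named in the submitters' processing notes, and the file headers give FlyBase release 5 as the build. Each of the 2 ChIP replicates has a deposited list of called regions, and a combined list covers both, with positions counted from 1. Each region carries a deposited score of no stated scale, above 0 for enriched and below 0 for depleted calls, which was used only as a percentile within its list. What called the regions, at which thresholds, and how input and replicates entered is not given in the sources used here. No read counts were analysed here, so depth is unknown.

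For each combined cluster the covered bases, the number of replicate clusters sharing at least 1 bp, their outermost edges and the best score percentile were computed. Overlap code was tested on simulated lists, with 0 disagreements in 600 overlaps. Wilson intervals are at 95%, cover counting error over clusters only, and treat neighbouring clusters as independent. The labels do not tell whether each replicate was a separate collection of flies, so their spread may be technical. The clusters, lists and alternatives were chosen with earlier results of these data known. Named regions are, per arm, those with the highest and lowest score, the widest, the narrowest, those with the closest edges, the closest and farthest neighbours, the longest runs, the densest and sparsest windows, and over all arms the most divided or overrun clusters and those next to a limit. Alternatives were other coverage and width limits, each replicate alone, high scores only, joined clusters and single arms. Gene positions were not used, since the gene table at hand follows release 6. Python 3.11.15, numpy 2.4.6, pandas 2.3.3, scipy 1.17.1 and matplotlib 3.10.9 were used.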

Additional observations from a re-analysis of the deposited data

How the results depend on the processing

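Changes beyond 1.5 times for the count, 1 SD between the replicates for the mean score percentile and the 95% binomial interval for other values were taken as moves. The number of clusters was 2468 at a coverage limit of 50%, 759 at 90%, 658 after joining clusters under 1 kb apart and 855 at widths from 3000 to under 8000 bp. By construction it was 415 on 2L, 480 on 3L and 518 on 3R alone, and higher with 1 replicate, at 2081 without replicate 2 and 2727 without replicate 1. At a limit of 100% no cluster was left, so that alternative gave no value. The share met by exactly 1 cluster in each replicate was 77.8% at 50%, 85.9% at 90%, 97.0% after joining, and 90.1% to 90.7% with 1 replicate, where a single match was enough. The median edge distance was 489 bp at 50% and 240 bp at 90%. The mean score percentile moved by less than 1 SD under all 10 alternatives that gave it. That SD rests on 2 medians and allowed a wide band, from 63.3 to 79.5, so this does not show a stable value. It was 64.3 at 50% and 77.2 at widths from 3000 to under 8000 bp. The median width moved under 7 of 10 alternatives, between 3591 and 4719 bp. The share with another cluster of the set within 10 kb moved under 8 of 10, from 34.3% after joining to 78.7% at 50%. The share overrun by 1 kb moved under 1 of 9 in each replicate, to 45.1% in replicate 1 alone and 6.12% in replicate 2 alone. The overhang of replicate 1 stayed above that of replicate 2 in every alternative that gave both. No paired analysis was possible because no input values were analysed here, which leaves nothing to pair with the ChIP libraries. Depth is unknown, and a base outside a list is one that was not called.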

Other observations

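A small number of the 1413 clusters ranked high in one replicate and low in the other. In 11 the best cluster lay in the highest quartile of replicate 1 and the lowest of replicate 2, and in 17 the reverse held. The cluster with the largest difference in favour of replicate 1, chosen after its values were seen, lay on 2L from 7528273 to 7530433, at percentile 79.3 of replicate 1 and 0.13 of replicate 2. The call of replicate 1 there was 31263 bp wide, and that of replicate 2 was 1805 bp. In favour of replicate 2 it was 3L from 4114393 to 4116585, at percentile 8.09 of replicate 1 and 89.0 of replicate 2. There the call of replicate 2 was the wider one, at 8677 bp against 1867 bp. In both cases the higher rank belonged to the wider call.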
